A study of Equus caballus with 9 samples.

Results

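Horse bone marrow-derived mesenchymal stromal cells that had been taken towards chondrocytes (CDM) were compared with undifferentiated cells of the same origin (MSC). The comparison used the 3 libraries titled CDM and the 3 titled MSC, chosen by title alone, so 6 of the 9 libraries of the series entered it. The other libraries came from cells taken towards adipocytes (ADM). The labels give no genotype, strain, age or sex of the donors, and none of the sources used here gives the induction medium, the culture format or its duration. According to the series' design text, the differentiated lines were checked by qPCR, cytometry and staining before RNA was extracted. Polyadenylated RNA was sequenced. Whether the replicates came from different animals or cultures is not stated, and the p-values below rest only on the spread among the 6 libraries, part or all of which may be technical.

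Mesenchymal stromal cells are adherent cells of the marrow that can give rise to cartilage, bone and fat lineages in culture. Chondrogenic induction usually relies on TGF-beta or BMP signals, which act together with the transcription factor SOX9. SOX9 switches on the genes of the cartilage matrix, among them type II collagen, which forms its fibrils, and aggrecan, the large proteoglycan that holds its water. Later, hypertrophic chondrocytes make type X collagen. None of these genes could be looked up, because the files give gene IDs without names and 0 of the 30371 IDs matched the gene table used here. The labelled cell type was therefore not checked against cartilage markers, and genes are described by their IDs, levels and counts.

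The libraries held 17260899 to 37609071 reads assigned to genes, with the fewest in CDM replicate 2. That library stood apart from the rest before any test. Its 10 most abundant genes took 56.2% of its gene counts, against 12.1% to 29.9% in the other 5 libraries. One gene, ENSECAG00000027689, which had the largest share of any library, took 36.8% (Wilson 95% interval 36.7387% to 36.7842%, counting error only), against 1.29% to 3.30% in the others. Reads assigned to no gene made up 36.4% in CDM replicate 2 and 24.6% to 30.2% in the other 5. The main counts below are also given without this library.

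The MSC and CDM libraries did not form 2 groups. After a filter on low counts, 13173 genes were tested, and levels were expressed as CPM (counts scaled to the library total) of tested genes after TMM scaling, which lines up libraries by a trimmed mean of their ratios. Each pair of libraries was described by the number of genes that lay at least 4-fold apart (log2 CPM with a prior count of 2). MSC replicate 1 and CDM replicate 3 were the closest of all 15 pairs, with 541 such genes, although they carry different labels. Within the MSC group, replicates 1 and 2 differed in 720 genes, replicates 2 and 3 in 1485, and replicates 1 and 3 in 1626. CDM replicates 1 and 3 differed in 1005. Leaving out CDM replicate 2, the 6 pairs across the groups had 541 to 1679 such genes (median 1064.5), and the 4 pairs within a group had 720 to 1626 (median 1245). By this count, which was not tested, the median pair across the labels differed in fewer genes than the median pair within a label. That order rested on MSC replicate 3. With it left out as well, the pairs within a label had 720 and 1005 such genes. Those across the labels had 541, 981, 1101 and 1126, so the order of the medians turned.

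Each of the 5 pairs with CDM replicate 2 differed in 2901 to 3709 genes. Its nearest neighbour was CDM replicate 3 and its farthest was the other library of its own group, CDM replicate 1. In 750 genes CDM replicate 2 lay at least 4-fold above all 5 other libraries, and in 454 at least 4-fold below them. MSC replicate 3 came next, with 100 genes above and 122 below. The remaining libraries had 10 to 34 genes above and 5 to 44 below.

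**Figure D1:**
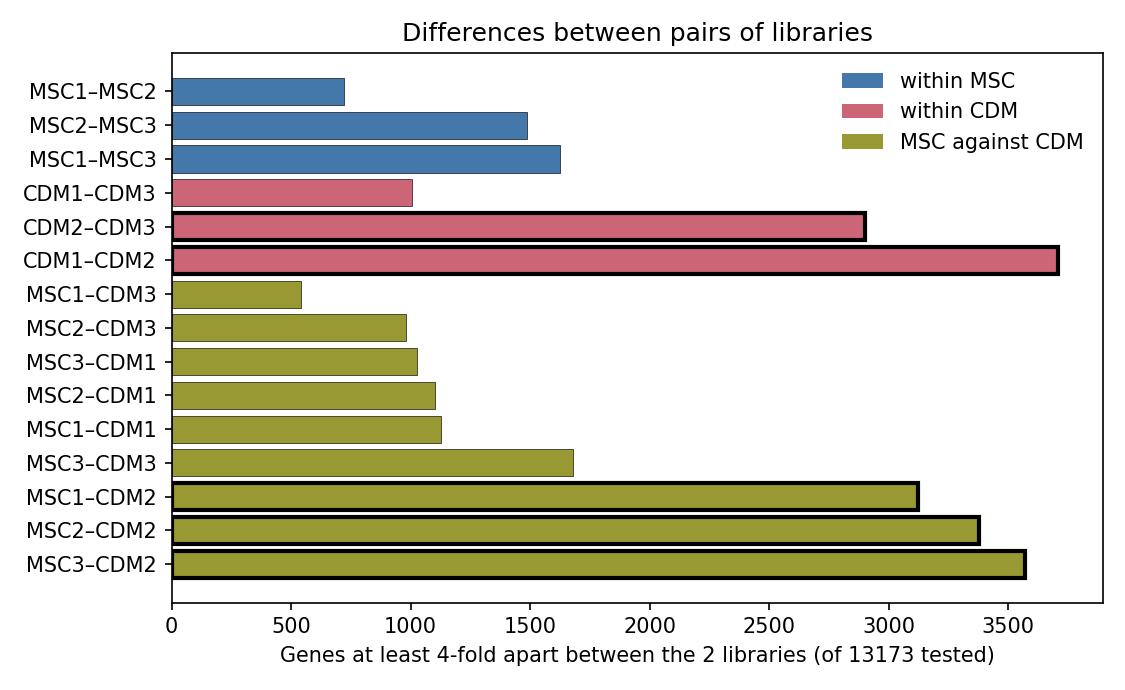
Number of genes at least 4-fold apart (horizontal axis, of 13173 tested) for each of the 15 pairs of libraries, coloured by whether the pair lies within MSC, within CDM or across the groups; MSC1 is MSC replicate 1, and so on. Thick outlines mark the 5 pairs with CDM replicate 2, which lie at 2901 to 3709, and the shortest bar is MSC replicate 1 with CDM replicate 3, at 541.

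The principal components of all tested genes showed the same arrangement. The first component held 45.4% of the variance and set CDM replicate 2, at 163.6, against the other 5 libraries, at -56.5 to -13.9. The second held 25.8% and ran from MSC replicate 3 (-100.2) and CDM replicate 1 (-29.1) to CDM replicate 3 (52.9) and MSC replicate 1 (63.0), so its ends each held libraries of both labels. On the third component, with 12.6%, MSC replicate 2 was at 77.6, MSC replicates 1 and 3 were at -5.04 and 0.0737, and CDM replicates 1, 2 and 3 were at -22.6, 1.53 and -51.5. None of these 3 components placed all MSC libraries on one side of all CDM libraries. On the third, CDM replicates 1 and 3 lay below every MSC library, and CDM replicate 2 did not.

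The range inside each group and the distance between the group means were each summarised by a median over genes. The median range was 0.88 log2 units among the MSC libraries and 1.54 among the CDM libraries. The median absolute difference of the group means was 0.49. A range of single libraries and a difference of means are unlike measures, so the order of these values does not compare the groups. Without CDM replicate 2 the median range of the remaining CDM pair was 0.56, and without MSC replicate 3 that of the remaining MSC pair was 0.44. The range of a pair cannot exceed that of the 3 libraries it comes from. The biological coefficient of variation, the spread between libraries beyond counting noise, was 0.583 in MSC and 0.732 in CDM. It was 0.506 for CDM without replicate 2 and 0.448 for MSC without replicate 3. In 156 genes the CDM mean exceeded the MSC mean by more than the range of either group, and in 397 it fell short by more than either range, together 4.20% of genes tested. These counts are descriptions and were not tested as a set.

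The main comparison asked which genes changed with chondrogenic differentiation. In edgeR's quasi-likelihood test on the 6 libraries alone, 0 of 13173 genes passed at an adjusted p under 0.05 in either direction, and the smallest adjusted p was 0.800. Before adjustment, p was under 0.05 for 246 genes that were higher (1.87%) and 298 that were lower (2.26%) in CDM, together 4.13%, where evenly spread p-values would give 5%. With library totals in place of TMM the split was 56 higher and 581 lower. It also moved with single libraries, to 45 and 179 without MSC replicate 2, 859 and 535 without CDM replicate 1, and 587 and 178 without CDM replicate 3. Without CDM replicate 2 it was 230 and 298. DESeq2 on the same 6 libraries called 6 genes higher and 7 lower, 0.0987% of genes.

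Fold changes were estimated with wide intervals. The 95% interval of a gene's fold change in edgeR reached 1.38 log2 units to either side at the median gene, or 2.61-fold. It stayed within 2-fold in both directions for 395 genes, 3.00% of those tested. For the other genes it reached 2-fold or more in at least 1 direction, so the absence of calls does not show that the groups were alike. The interval was widest for genes under 1 CPM, at 2.25 log2 units to either side, narrowest for genes of 10 to 100 CPM, at 1.17, and 1.30 for genes over 100 CPM. Without CDM replicate 2 the median was 1.17, and the interval stayed within 2-fold for 1509 of 13618 genes.

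Fitted differences were often large without passing. The estimate was at least 2-fold higher in CDM for 1595 genes and at least 2-fold lower for 1192. It was at least 4-fold higher for 427 genes and lower for 213, and at least 8-fold higher for 124 and lower for 56. In most of these genes the libraries of the groups overlapped. Among the genes at least 4-fold apart, every CDM library lay above every MSC library in 53 of the 427, and below in 68 of the 213. At 8-fold the counts were 15 of 124 and 21 of 56. The direction of the large differences turned when CDM replicate 2 was left out, an alternative added once the data had been seen. Then 635 genes were at least 2-fold higher and 1342 lower, 106 at least 4-fold higher and 387 lower, and 32 at least 8-fold higher and 167 lower. At 4-fold, the groups did not overlap in 53 of the 106 higher and 131 of the 387 lower genes, with fewer libraries that have to line up.

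In 488 genes (3.7%) the lowest CDM library lay above the highest MSC library, and in 931 (7.07%) the highest CDM library lay below the lowest MSC library, together 10.8% of those tested. For 3 libraries against 3, groups that do not overlap have an exact p of 0.1. That is the share of genes given by order alone, and 10.8% lay near it. The median fitted fold was 1.86 for the higher genes and 1.96 for the lower ones. An unadjusted p under 0.05 was reached by 121 of the 488 and 251 of the 931. The balance changed with the level of the gene. Among the 1017 genes under 1 CPM, 25 were higher (2.46%) and 69 lower (6.78%). Of the 3906 genes of 1 to 10 CPM, 109 were higher (2.79%) and 302 lower (7.73%). In the 6849 genes of 10 to 100 CPM the numbers were 275 (4.02%) and 505 (7.37%). Above 100 CPM the order turned, with 79 of 1401 genes higher (5.64%) and 55 lower (3.93%). This change of balance was not tested. The split also rested on the scaling. With library totals in place of TMM, 73 genes were higher and 1942 lower, while the median log2 difference of all genes moved from 0.01 to -0.45. Without CDM replicate 2 there were 1275 higher and 1480 lower of 13618 genes tested, with 343 higher and 112 lower above 100 CPM. Fewer libraries have to line up there, so order alone gives a larger share of such genes. These counts therefore cannot be set against the 488 and 931, and their rise does not show a clearer difference. No gene was absent from one group and well expressed in the other, since 0 genes had no count in all MSC libraries and at least 10 in each CDM library, and 0 showed the opposite.

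**Figure D2:**
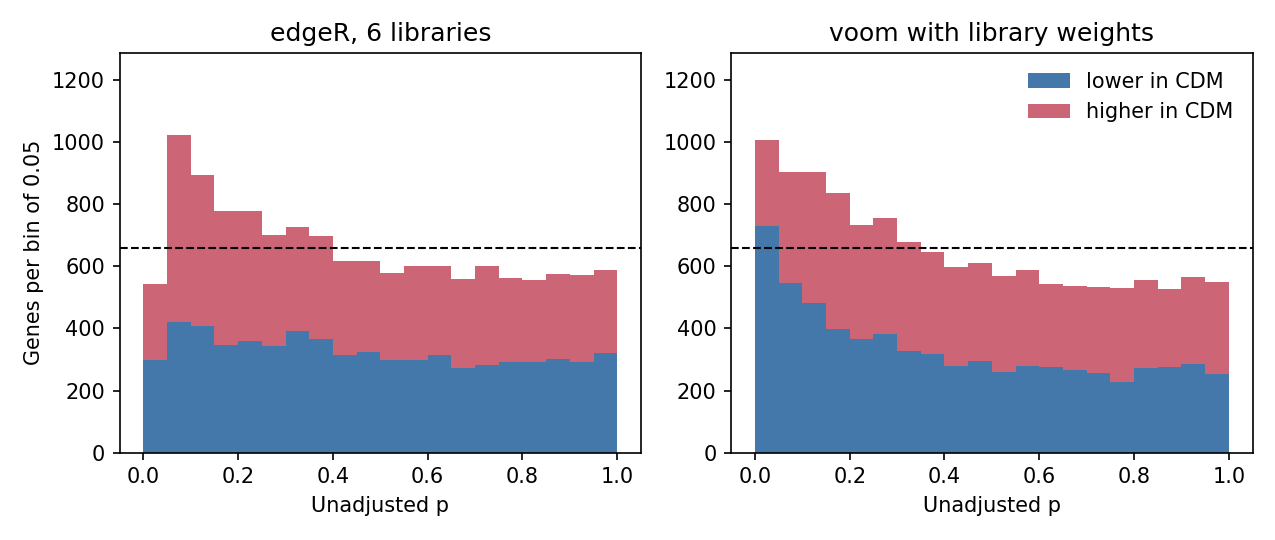
Unadjusted p-values of the 13173 genes in bins of 0.05 for edgeR (left) and for the fit with library weights (right), with genes lower in CDM in blue and higher in red. The dashed line marks 659 genes, the height of each bin if p-values were evenly spread; the lowest bin holds 544 genes on the left and 1006 on the right, of which 731 are lower in CDM.

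A second fit, voom in limma with 1 weight per library, gave less influence to libraries that were far from the others of their group. CDM replicate 2 received the lowest weight, 0.259, and CDM replicate 3 the highest, 2.44. The other weights were 0.821 for CDM replicate 1, 1.80 and 1.61 for MSC replicates 1 and 2, and 0.665 for MSC replicate 3. CDM replicate 3 therefore counted 9.44 times as much as CDM replicate 2. The library at the far side of the middle one in its group was CDM replicate 2 for 57.9% of genes and MSC replicate 3 for 44.6%, where an even share is 33.3%.

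**Figure D3:**
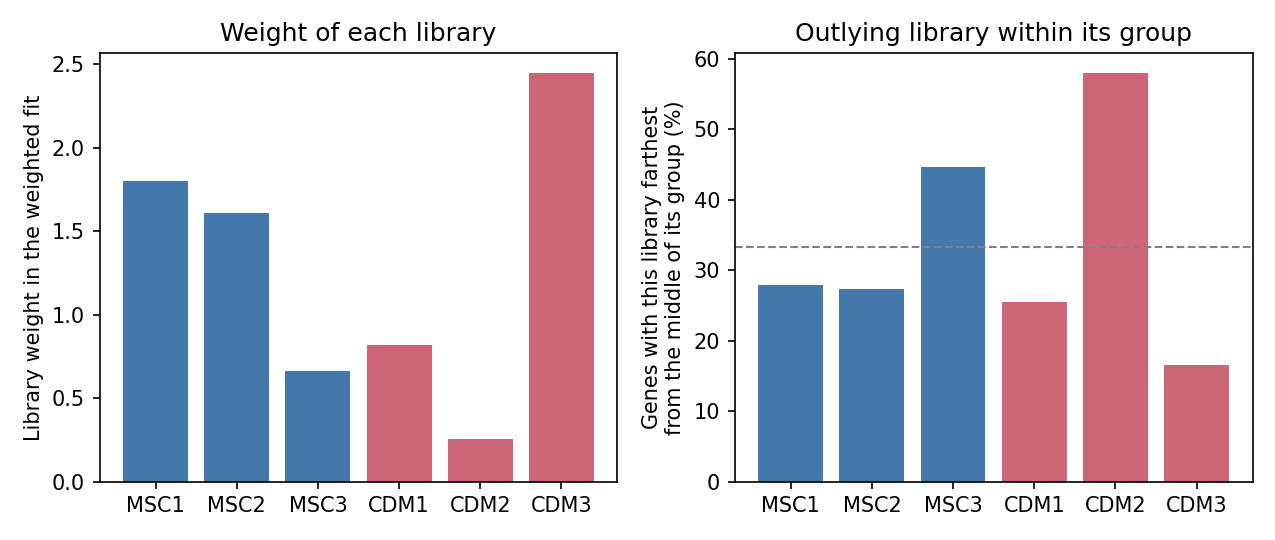
Weight of each library in the weighted fit (left) and percent of the 13173 genes for which the library was the farthest from the middle one of its 3 (right; the dashed line is an even share of 33.3%), with MSC in blue and CDM in red. CDM replicate 2 has the lowest weight, 0.259, and the largest share, 57.9%; CDM replicate 3 has the highest weight, 2.44, and the smallest share, 16.5%.

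The weighted fit also called 0 genes in either direction, with a smallest adjusted p of 0.627. At an unadjusted p under 0.05 it gave 275 higher genes (2.09%) and 731 lower genes (5.55%), together 7.64%. Of these, 93 higher and 242 lower genes were also under 0.05 in edgeR, while 489 of the lower ones were not. In 215 of those 489 every CDM library lay below every MSC library, as in 7.07% of all genes tested. The 489 were picked as lower by p in these same libraries, so a larger share among them lends no support. CDM replicate 2 was the highest CDM library in 35.2% of the 489, against 38.5% of all genes. All genes are not a like set for genes picked as lower in CDM, and the part of CDM replicate 2 was not tested. The balance of directions depended on single libraries. Without CDM replicate 3 there were 125 higher genes and 25 lower, without CDM replicate 1 453 and 164, and without CDM replicate 2 287 and 275. Leaving out MSC replicate 1 gave 441 and 629, and leaving out MSC replicate 2 gave 99 and 466. Without any weights the counts were 95 and 279, and with library totals as the scaling 97 and 1051.

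Since no gene passed in either fit, the 2 genes with the smallest p in each direction and a mean of at least 5 CPM in one group are described, picked by that p. Both fits gave all 4 the same direction, and none of the 4 passed in either. The shared direction lends no support, because the genes were picked by p in these same libraries. In edgeR without CDM replicate 2 their log2 differences were 6.55 for ENSECAG00000039617, 2.29 for ENSECAG00000010447, -2.28 for ENSECAG00000015144 and -3.43 for ENSECAG00000017294.

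ENSECAG00000015144 had the smallest p among the lower genes. It was at 112.0, 129.4 and 63.3 CPM in MSC replicates 1, 2 and 3 and at 14.5, 11.7 and 26.5 CPM in the CDM replicates. The lowest MSC library was above the highest CDM library, and CDM replicate 2 lay close to CDM replicate 1. The means were 101.5 ± 34.3 CPM in MSC and 17.6 ± 7.87 CPM in CDM (SD, n = 3 each), a fitted difference of -2.53 log2 units (SE 0.50, 95% interval -3.68 to -1.37). The edgeR adjusted p was 0.800 and that of the weighted fit in limma, with a difference of -2.29 (SE 0.38), was 0.627.

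ENSECAG00000017294 was expressed at a low level in both groups. MSC replicates 1, 2 and 3 had 425, 229 and 300 counts, or 12.4, 6.02 and 8.55 CPM, and the CDM replicates had 11, 11 and 41 counts, or 0.380, 1.16 and 1.25 CPM. The groups did not overlap, and the lowest MSC library was well above the highest CDM library. The difference was -3.28 log2 units (SE 0.68, 95% interval -4.87 to -1.69), or 9.68-fold lower in CDM (edgeR adjusted p = 0.800).

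ENSECAG00000039617 was close to undetected in undifferentiated cells, with 4, 1 and 2 counts in MSC replicates 1, 2 and 3, and had 336, 25 and 45 counts in the CDM replicates. In CPM these were 0.116, 0.0263 and 0.0570 against 11.6, 2.64 and 1.38. All CDM libraries were higher, but CDM replicate 1 alone was 8.43 times CDM replicate 3. The CDM mean of 5.20 CPM reached the minimum of 5 CPM for being described only through CDM replicate 1. The summed counts, 406 against 7, gave a ratio of 87.6 per scaled read (exact 95% interval 42.1 to 219.4, counting error only). CDM replicate 1 gave 82.8% of the 406. The fitted difference was 6.22 log2 units (SE 1.16, 95% interval 3.51 to 8.93, edgeR adjusted p = 0.800). It was 4.84 without CDM replicate 1 and 6.84 without MSC replicate 1. In limma it was 5.65 without library weights and 4.98 with them (SE 1.28, limma adjusted p = 0.627).

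ENSECAG00000010447 was at 25.6, 13.3 and 27.3 CPM in MSC replicates 1, 2 and 3 and at 140.2, 65.2 and 74.0 CPM in the CDM replicates. Again the groups did not overlap, and CDM replicate 1 was the highest library. It was 4.22-fold higher in CDM, or 2.08 log2 units (SE 0.49, 95% interval 0.94 to 3.22, edgeR adjusted p = 0.800). The weighted fit gave a near-identical estimate, 2.10 (SE 0.40, limma adjusted p = 0.627).

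**Figure D4:**
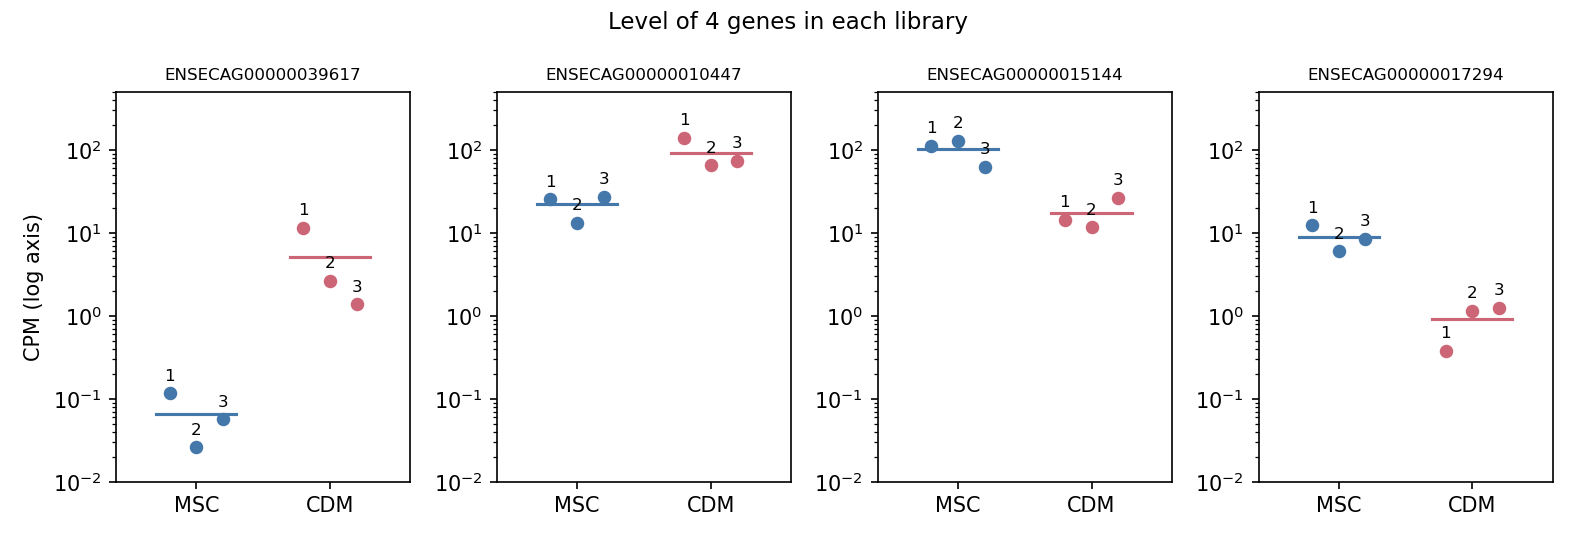
Level in CPM (log axis) of the 4 genes with the smallest p in each library, with MSC in blue, CDM in red, replicate numbers above the points and a line at each group mean. In each panel the 3 CDM points lie on one side of the 3 MSC points; the widest spread within a group is that of the CDM libraries for ENSECAG00000039617, from 1.38 to 11.6 CPM.

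DESeq2 called 3 of these genes, with adjusted p of 5.84e-05 for ENSECAG00000039617, 0.0119 for ENSECAG00000017294 and 0.0165 for ENSECAG00000015144, but not ENSECAG00000010447 (0.0574). These 3 were picked by p in the same libraries, so the calls lend them no support. The 7 lower genes of DESeq2 were 4.08 to 18.9-fold lower in CDM, and the libraries of the groups did not overlap in any of the 7. Its 6 higher genes were 3.67 to 100.5-fold higher. In 4 of these 6 the groups did not overlap, and the CDM libraries of a gene differed from each other by 1.27 to 228.9 times, compared with 1.70 to 5.46 times for the lower genes. Their MSC libraries differed by 1.52 to 9.79 times for the higher genes and by 1.28 to 18.8 times for the lower ones. Leaving out CDM replicate 2, an alternative added once the data had been seen, DESeq2 gave 31 higher and 37 lower genes (0.499% of those tested). They included 5 of the 6 and 6 of the 7. All 13 genes had an adjusted p of 0.800 in edgeR. They were called by p in these same libraries, so a lack of overlap was largely fixed by that choice and lends no support. Over all genes tested, the groups did not overlap in 3.7% (higher) and 7.07% (lower).

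The same 4 genes were set beside the adipogenic libraries, in 1 fit of all 9 libraries with its own scaling. ENSECAG00000015144 was at 19.2 to 23.3 CPM in ADM and 12.3 to 27.5 in CDM, a CDM minus ADM difference of -0.21 log2 units (SE 0.39, edgeR adjusted p = 0.794). ENSECAG00000039617 was at 3.39 to 11.6 CPM in ADM and 1.42 to 11.6 in CDM, a difference of -0.29 (SE 0.82, adjusted p = 0.870). ENSECAG00000017294 differed by -0.99 (SE 0.66, adjusted p = 0.422). ENSECAG00000010447 was at 176.6 to 384.4 CPM in ADM, above every CDM library (68.1 to 140.7), a difference of -1.42 (SE 0.46, adjusted p = 0.204). None of the 4 differences between the lineages passed, and 0 genes did over the whole table (smallest edgeR adjusted p = 0.141). For none of the 4 was a change particular to the chondrogenic cells shown.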

How the data were processed

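The authors deposited 1 table per library with raw read counts per gene. Per the submitters' processing notes, the tools were HTSeq 1.99.2, STAR 2.7.5c, DESeq2 3.16 and FastQC 0.11.9, with build equCab3. No source used here gives the annotation release or strand setting, so reads of overlapping or antisense genes may not have been kept apart, and genes with near-identical copies are uncertain. The 5 summary lines per table entered neither library sizes nor tests.

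Analysis of the 6 libraries used edgeR 4.0.16 under R 4.3.3 (filterByExpr by group, TMM, quasi-likelihood test), limma 3.58.1 (voom with library weights) and DESeq2 1.42.0. All tests were 2-sided, with Benjamini-Hochberg adjustment and a threshold of 0.05. In edgeR and limma the adjustment ran over all genes tested. The SE of an edgeR change came from its F statistic. DESeq2 gave no adjusted p for 396 genes and adjusted over the rest. An exact test of single values, 3 against 3, cannot go below 0.1. The edgeR and limma fits were tested on simulated counts. No within-group pair agreed within sampling noise: chi-square per degree of freedom was 232.7 to 1988, over genes with at least 10 counts.

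The libraries, gene lists and tests were chosen with earlier results of these data known. The gene lists could not be matched to IDs and were not used. To be named, a gene needed groups that did not overlap, 5 CPM or more on average in one of them, and an adjusted p below 0.05. As 0 passed, the 2 smallest p per direction were taken, plus the ID with the largest share of a library. Alternatives varied scaling, filter, libraries, test, weights and a replicate block.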

Additional observations from a re-analysis of the deposited data

Results flagged for a closer look

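The summary lines of the count tables, which no comparison used, took a larger share of the reads in CDM replicates 2 and 3 than in any MSC library. For reads outside any annotated feature, the MSC libraries ranged from 17.7% to 22.1% of all counted reads, while CDM replicate 2 had 24.4% and CDM replicate 3 had 23.3%. CDM replicate 1, at 16.9%, lay below the MSC range. For ambiguous reads the MSC range was 1.41% to 1.74%, and CDM replicate 2 had 4.47%. For reads with several alignments it was 4.80% to 6.72%, and CDM replicate 2 had 7.49%. Their part in the comparison of CDM with MSC was not tested.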

How the results depend on the processing

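The edgeR count of 0 genes in each direction held under 14 of 16 alternatives, and that of the weighted fit under all 15. The exceptions were DESeq2 (6 higher, 7 lower) and DESeq2 without CDM replicate 2 (31 and 37, chosen after seeing the data); the cause was not tested. Leaving out any 1 library gave 0 and 0 in both fits. Genes whose groups do not overlap numbered 73 higher and 1942 lower with library totals only. With 1 library left out they were 853 to 1648 higher and 1300 to 2283 lower, of 13431 to 13694 genes tested. Without CDM replicate 2 and MSC replicate 3 they were 2314 and 2486 of 13474. Where libraries are left out, fewer have to line up, so order alone gives a larger share of such genes. These counts therefore cannot be set against those of all 6, and their rise does not show a clearer difference. The counts of genes without overlap under these alternatives were added after seeing the data, as was leaving out CDM replicate 2 and MSC replicate 3 together. For the tests themselves, library totals and leaving out 1 library were planned. At an unadjusted p under 0.05, edgeR gave 45 to 859 higher genes and 178 to 535 lower with 1 library left out, and 835 and 667 with all 9 libraries. Deviations of same-numbered libraries correlated at -0.29, 0.01 and -0.31 across genes, and not every library correlated best with its own number. MSC replicate 1 correlated at 0.37 with CDM replicate 3, and MSC replicate 3 at 0.26 with CDM replicate 1. Deviations within a group of 3 depend on one another, so these values cannot decide whether the libraries were paired. With a replicate block, 0 genes passed, and 46 and 131 had an unadjusted p under 0.05. The 4 named genes kept their direction under all alternatives, which was largely fixed in advance because they were picked by p in these same libraries. Intervals reached 2.25 log2 units to either side for genes under 1 CPM, 1.17 for genes of 10 to 100 CPM and 1.30 above that; the part of depth in this was not tested. The tests of gene lists could not be run, because no ID matched a symbol.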
